A study of Mus musculus with 6 samples.

Results

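The amino acid transporter genes of the newborn mouse ovary were compared between mice lacking both Sohlh1 and Sohlh2 and wildtype mice. Members were all genes whose symbol on the array begins with Slc1a, Slc3a, Slc6a, Slc7a, Slc36a, Slc38a or Slc43a followed by a number. They were taken by name with no cut on a measured value, but were chosen with earlier results of these data known. This rule took 58 of 19057 named genes, with 120 of the 45281 probes, in 7 families. One of them, Slc7a6os, is a gene on the strand opposite Slc7a6 and is not a transporter, which leaves 57 transporters. The rule also takes carriers of monoamines, creatine, taurine and betaine, because these belong to the same families by sequence.

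Total RNA of whole newborn ovary was hybridised to Illumina MouseWG-6 BeadChips, with 4 arrays from double-knockout and 2 from wildtype mice of strain C57BL/6/129S6/SvEv. The labels name the genotype as a double knockout of both genes and describe the alleles no further, and both groups shared strain, age and tissue. The labels do not say whether samples were separate animals, pools or litters, so the p-values describe the spread among these samples alone, which may be technical. With 6 arrays, the small number limits how precise any value is. Arrays are named by the numbers of their titles: double-knockout 1, 2, 3 and 5, and wildtype 2 and 3.

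Amino acid transporters move amino acids across the plasma membrane or out of lysosomes. Some use the sodium gradient (Slc1, Slc6 and Slc38), some use protons (Slc36), some exchange one amino acid for another (Slc7), and the Slc43 carriers work without an ion gradient. Most Slc7 light chains need a heavy chain of the Slc3 family to reach the membrane. Mouse oocytes take up several amino acids poorly by themselves and receive them through gap junctions from the surrounding granulosa cells, while glycine, imported by Slc6a9, helps oocytes and early embryos to hold their volume. Sohlh1 and Sohlh2 are basic helix-loop-helix transcription factors of germ cells, a class of proteins that binds the DNA letters CANNTG, the E-box.

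Both Sohlh1 probes were lower in the double knockout. The brighter probe stood at a log2 level of 9.67, 9.39, 9.73 and 9.80 on double-knockout arrays 1, 2, 3 and 5, against 12.88 and 13.01 on wildtype arrays 2 and 3 (double knockout minus wildtype -3.30 ± 0.16 SE). The Sohlh1 probes were detected on every array. The Sohlh2 probe was detected on 0 of 4 double-knockout and 1 of 2 wildtype arrays and could not be tested. The position of these probes against the deletions is unknown, and a probe outside a deletion is no check of it. Of 15 tested oocyte markers, with Sohlh1 among them, 11 fell, 0 rose and 4 did not pass, among them Lhx8, an oocyte transcription factor (-3.73), and Nlrp14, of the oocyte NLR family (-3.22). Leaving out wildtype array 2 left 6 of them, and leaving out wildtype array 3 left 8. The list's summed linear signal was 7230 to 10813 on double-knockout arrays and 29681 to 38115 on wildtype arrays. In bulk tissue, fewer cells of a type and less RNA per cell cannot be told apart, and the share of any transporter change that goes with this was not tested.

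Among the transporters, Slc7a11 and Slc6a9 were lower in the double knockout, and Slc1a2, Slc6a20b, Slc36a1 and Slc6a19 were higher. Of the 58 genes, 39 were tested, and 2 fell, 4 rose and 33 did not pass at an adjusted p of 0.05 (limma with Benjamini-Hochberg adjustment over the 12163 tested genes). The 6 called genes are 15.4% of those tested, where 9.42% of all tested genes were called, 4.06% lower and 5.36% higher. The median change was 0.09 over the members and 0.03 over all genes on the log2 scale. Arrays did not overlap between genotypes for 38.5% of the tested members and 38.1% of all tested genes, so the members stood near the background by this measure. By probe, 2 of 55 tested probes fell and 6 rose, where 7.27% of all tested probes were called. The count of called members was 1 without wildtype array 2, when Slc6a20b alone passed, and 5 without wildtype array 3. Without 1 double-knockout array it was 4 to 8.

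**Figure D1:**
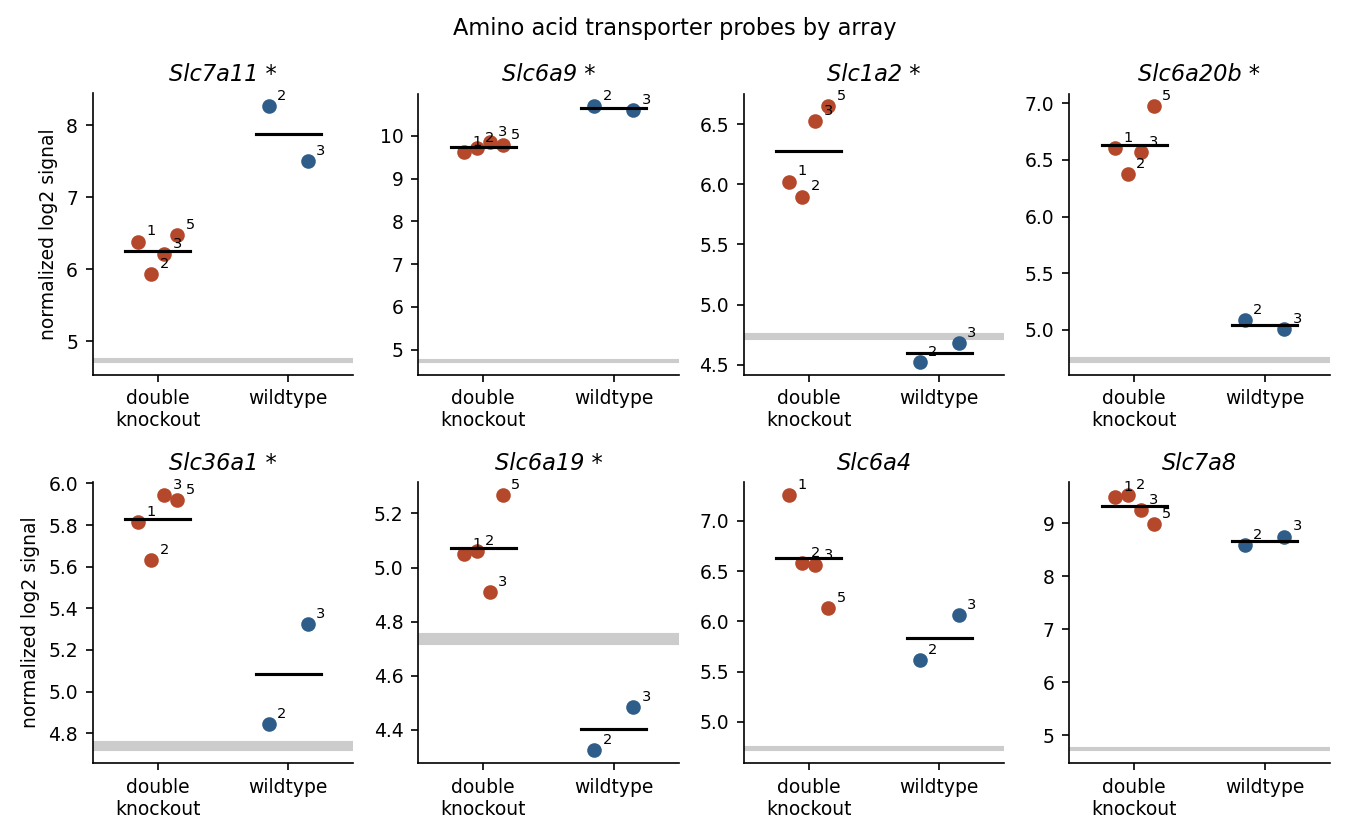
Normalized log2 signal of 8 amino acid transporters on each array, with the 4 double-knockout arrays to the left of the 2 wildtype arrays, digits for array numbers and a line at each mean. The grey band is the range of the lowest detected signals (4.72 to 4.76), an asterisk marks adjusted p under 0.05, and in all 8 panels, Slc6a4 and Slc7a8 included, the genotypes do not overlap.

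Promoters of the called members were searched for CANNTG, the letters a basic helix-loop-helix factor could bind, and for further motifs: TGATGNAA, bound by ATF4 with C/EBP partners on genes of the amino acid response, and CACGTG, a form of the E-box that lysosomal genes often hold. Motifs are in capitals, were searched on both strands, and CACGTG is itself a CANNTG. Each sequence runs 5′ to 3′ on the gene's strand, from 250 bases before to 50 after the RefSeq start (GRCm38.p6), and motif positions are those of the first letter counted from the start as 1, with no 0. The windows of called members that held a motif are shown: Slc7a11, Slc6a9 (the first of 3 starts), Slc1a2, Slc6a20b and Slc36a1. The part of any motif in the changes below was not tested.
Slc7a11 (chr3:50443564-50443863, minus strand): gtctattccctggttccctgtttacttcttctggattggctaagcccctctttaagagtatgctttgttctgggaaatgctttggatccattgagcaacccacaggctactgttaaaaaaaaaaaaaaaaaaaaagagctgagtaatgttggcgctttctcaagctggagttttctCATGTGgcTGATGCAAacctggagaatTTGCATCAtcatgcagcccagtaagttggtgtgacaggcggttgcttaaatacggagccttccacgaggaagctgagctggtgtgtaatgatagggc
Slc6a9 (chr4:117835008-117835307, plus strand): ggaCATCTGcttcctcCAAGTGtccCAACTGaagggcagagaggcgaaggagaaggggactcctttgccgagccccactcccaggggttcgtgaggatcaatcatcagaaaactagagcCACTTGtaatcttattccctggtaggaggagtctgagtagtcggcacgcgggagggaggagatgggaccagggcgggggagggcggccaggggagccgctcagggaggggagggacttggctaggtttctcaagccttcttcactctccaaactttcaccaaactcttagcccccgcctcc
Slc1a2 (chr2:102706188-102706487, plus strand): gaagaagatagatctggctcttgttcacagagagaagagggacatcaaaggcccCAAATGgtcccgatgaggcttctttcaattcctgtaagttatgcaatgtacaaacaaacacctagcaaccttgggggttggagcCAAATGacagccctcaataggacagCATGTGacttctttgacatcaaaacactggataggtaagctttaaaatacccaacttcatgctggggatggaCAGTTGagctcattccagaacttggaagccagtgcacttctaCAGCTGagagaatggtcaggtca
Slc6a20b (chr9:123632489-123632788, minus strand): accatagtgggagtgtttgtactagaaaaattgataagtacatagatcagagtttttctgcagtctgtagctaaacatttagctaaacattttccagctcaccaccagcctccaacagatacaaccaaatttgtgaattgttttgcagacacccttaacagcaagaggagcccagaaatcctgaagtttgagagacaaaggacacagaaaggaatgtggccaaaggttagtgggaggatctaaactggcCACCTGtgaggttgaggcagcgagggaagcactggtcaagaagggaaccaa
Slc36a1 (chr11:55204090-55204389, plus strand): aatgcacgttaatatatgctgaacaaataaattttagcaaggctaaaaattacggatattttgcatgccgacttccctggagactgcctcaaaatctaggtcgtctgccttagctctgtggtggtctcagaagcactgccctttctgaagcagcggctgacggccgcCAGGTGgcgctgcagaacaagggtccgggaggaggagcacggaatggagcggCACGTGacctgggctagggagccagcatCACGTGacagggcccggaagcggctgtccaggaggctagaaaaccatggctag

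The Slc7a11 window held 1 E-box at -74 and 2 matches of TGATGNAA, at -66 and -47. Slc1a2 held 5 E-boxes, at -196, -112, -87, -15 and 28, and the first start of Slc6a9 held 4, at -247, -234, -225 and -131, while its other 2 starts held 0. Slc36a1 held 3 E-boxes, at -83, -31 and -3, the last 2 of them CACGTG, and Slc6a20b held 1 at -1. Slc6a19 had none of the motifs in its window. CANNTG occurred in 72.3% of the 32851 promoters in the table and in 68.3% of the 63 promoters of the 42 members that matched it. TGATGNAA occurred in 3.97% of all promoters and 7.94% of the members' promoters, which is 5 of 63, with alternative starts of Slc7a7 counted separately. CACGTG occurred in 7.15% and 12.7%, the latter 8 of 63. A match is a description of letters and not a binding site.

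Slc7a11 had the largest fall. It encodes xCT, the light chain that exchanges internal glutamate for external cystine, the material for glutathione. Its brightest probe had log2 levels of 6.38, 5.93, 6.22 and 6.47 on double-knockout arrays 1, 2, 3 and 5, against 8.26 and 7.50 on wildtype arrays 2 and 3. All 4 double-knockout arrays lay below both wildtype arrays, and the wildtype arrays differed from each other by more than the double-knockout arrays did. The mean was 6.25 ± 0.24 (SD, n = 4) in the double knockout and 7.88 ± 0.54 (SD, n = 2) in wildtype, a change of -1.63 ± 0.23 (SE) or 3.09-fold lower (adjusted p = 0.00413). A second probe had 5.32, 5.39, 5.21 and 5.67 in the double knockout and 5.93 and 5.78 in wildtype. It also separated the genotypes, with a smaller change of -0.46 ± 0.16 that did not pass over all probes (adjusted p = 0.123). The other 3 of its 5 probes were not tested. Without wildtype array 2 the change of the brightest probe was -1.24 and did not pass (adjusted p = 0.0548). The mean of both tested probes gave -1.04 and kept the call.

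Slc7a11 lies on chromosome 3, as does Sohlh2, and was the 39th nearest tested gene to it, with 23 tested genes between them in the GRCm38.p6 gene order. Its next neighbour among tested genes, Noct, a phosphatase with circadian expression, fell by 4.21, a change that is in part against background because it was detected on 1 of 4 double-knockout arrays. Noct had levels of 4.82, 4.42, 4.42 and 4.45 on double-knockout arrays 1, 2, 3 and 5 and 9.02 and 8.45 on wildtype arrays 2 and 3. Of the 5 tested genes on either side, Mgarp, of mitochondria, rose by 2.02 and Jade1 by 0.61, while the other 7 did not pass (-0.63 to 0.53). Among the 50 and 100 tested genes nearest Sohlh2, 10% and 15% were called, and 0 of the nearest 20. Around Sohlh1 the shares were 5%, 6% and 7% for the nearest 20, 50 and 100 genes. The part of its position near Sohlh2 in the Slc7a11 change was not tested.

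**Figure D2:**
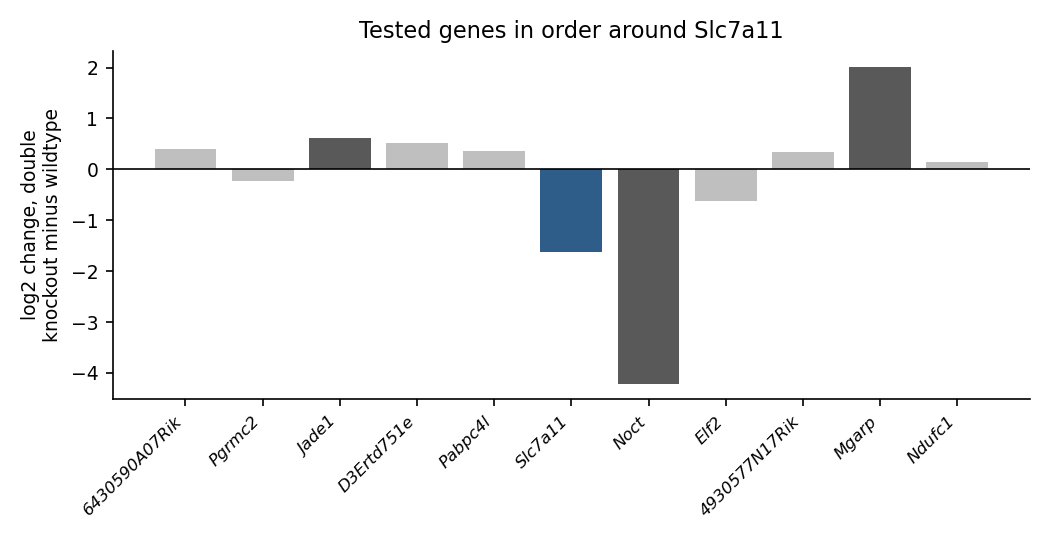
Change in log2 signal (double knockout minus wildtype) of Slc7a11 and the 5 tested genes on either side of it, in the gene order of GRCm38.p6. Noct (-4.21, detected on 1 of 4 double-knockout arrays) and Slc7a11 (-1.63) fell side by side and Mgarp (2.02) rose 3 places beyond Noct. Slc7a11 is blue, and dark grey marks its neighbours with adjusted p under 0.05.

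Slc6a9 encodes GLYT1, the sodium-coupled glycine transporter, which is known from mouse oocytes and embryos and also from erythroid cells and glia. It has 2 probes, of which 1 was detected on no array and was not tested. The other had levels of 9.61, 9.71, 9.85 and 9.78 on double-knockout arrays 1, 2, 3 and 5. On wildtype arrays 2 and 3 it had 10.69 and 10.59. The gap between genotypes was several times the range within either. The means were 9.74 ± 0.10 (SD, n = 4) and 10.64 ± 0.07 (SD, n = 2), a change of -0.90 ± 0.14 or 1.87-fold lower (adjusted p = 0.00569). The change was -0.85 without wildtype array 2 and then did not pass (adjusted p = 0.0809). The erythroid marker list had a mean log2 level of 10.19, 9.48, 10.89 and 9.81 in the double knockout and 9.16 and 8.94 in wildtype, and its summed linear signal was 74415 to 82306 in the double knockout and 74020 and 63990 in wildtype. The part of erythroid cells in the Slc6a9 values was not tested. Of the 9 tested erythroid markers 1 rose, Alas2, the erythroid enzyme of heme synthesis (1.34), and 0 rose when either wildtype array was left out. Slc6a7, a brain proline transporter, gave -0.20, and Slc6a17, of synaptic vesicles, gave -0.74 ± 0.25 (adjusted p = 0.102). Slc6a15, a transporter of branched-chain amino acids and proline in brain, gave 0.07, and Slc6a5, the neuronal glycine transporter, was detected on no array.

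Slc6a20b was the member with the steadiest call. It is one of a pair of neighbouring mouse genes that correspond to a single human gene for a proline (imino acid) transporter, and its own cargo is less well described. Its levels were 6.60, 6.37, 6.57 and 6.97 on double-knockout arrays 1, 2, 3 and 5 and 5.09 and 5.0 on wildtype arrays 2 and 3, with no overlap. The mean of 6.63 ± 0.25 (SD, n = 4) in the double knockout against 5.05 ± 0.06 (SD, n = 2) in wildtype was a change of 1.59 ± 0.18, 3.00-fold higher (adjusted p = 0.00123). It passed in all 15 alternatives, which changed 1 processing choice or left out 1 array each, at 0.96 to 1.68, with the smallest change when no background was corrected. The probe of its near-identical neighbour Slc6a20a was detected on no array. Probes of such similar genes may not tell them apart.

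Slc6a19 encodes B0AT1, the neutral amino acid transporter of the gut and kidney brush border. It was detected on 4 of 4 double-knockout arrays, at 5.05, 5.06, 4.91 and 5.27, and on 0 of 2 wildtype arrays, with measured values of 4.32 and 4.48. It was at least 1.27-fold higher in the double knockout (adjusted p = 0.0278). The bound sets the double-knockout mean against the higher of the array's lowest detected signal and the probe's own value. This bound and those below are set on means and leave out the spread among arrays. Such small signals lie close to the background. The call was lost in 6 of 15 alternatives, and the bound did not hold with an offset of 50 (change 0.29, adjusted p = 0.0791). A second Slc6a19 probe was detected on 1 of 4 double-knockout and 0 of 2 wildtype arrays and was not tested. It stood at 4.45, 4.46, 4.40 and 4.76 in the double knockout against 4.62 and 4.47 in wildtype, and so did not repeat the rise. Among 7 tested brush border markers, 2 rose and 1 fell: Sis, the gut sucrase-isomaltase (3.97), and Xpnpep2, a membrane aminopeptidase (2.91), rose, and Vil1, villin (-1.72), fell. Their summed linear signal was 1866 to 2342 on double-knockout arrays and 1171 to 1348 on wildtype arrays, and the defining markers Cubn, Slc5a1 and Slc5a2 were not tested because they were detected on fewer than 2 arrays. The part of this in the Slc6a19 change was not tested. Cltrn, collectrin, a partner that B0AT1 needs in the kidney, gave -0.27 (adjusted p = 0.34), and Slc6a18, the related transporter next in the family, was detected on 1 array.

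Slc1a2 encodes GLT-1, the main glutamate transporter of astrocytes. It was detected on 4 of 4 double-knockout arrays, at 6.02, 5.90, 6.52 and 6.65, and on 0 of 2 wildtype arrays, with measured values of 4.52 and 4.68. It was at least 2.93-fold higher in the double knockout (adjusted p = 0.00316). A second probe, which carries another transcript record, had 5.46, 5.10, 5.56 and 5.58 in the double knockout and 4.57 and 4.46 in wildtype. Both probes thus separated the genotypes, and the second also passed over all probes (0.91 ± 0.17, adjusted p = 0.0155). The other 3 of its 5 probes were not tested. The change was 0.94 with no background correction and with an offset of 50, so the bound does not hold there, and without wildtype array 2 it was 1.56 and did not pass (adjusted p = 0.059). Neural and glial markers moved both ways. Of 5 tested, Sox10 of neural crest and glia rose (0.85), while Uchl1, a deubiquitinase that is also abundant in oocytes, fell (-2.71). Th, tyrosine hydroxylase, was detected on 0 of 4 double-knockout and 2 of 2 wildtype arrays and was at least 7.27-fold lower, a bound that does not hold with no background correction (-2.01), an offset of 50 (-2.0) or the authors' values (-2.04). Their summed linear signal was 861 to 1046 on double-knockout arrays and 3512 to 4190 on wildtype arrays, and S100b, Elavl4, Dbh, Gap43 and Nefl were detected on too few arrays to be tested. The part of such cells in the Slc1a2 change was not tested.

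The other members of the Slc1 family did not pass. Slc1a3, the glial and retinal glutamate transporter GLAST, was among the 2 brightest and stood at 9.49 to 10.21 on double-knockout arrays against 9.87 and 9.90 on wildtype arrays, a difference of -0.00 with a 95% interval of -0.45 to 0.45. Slc1a4, a neutral amino acid exchanger that carries serine, gave 0.04 (adjusted p = 0.916). Slc1a1, the neuronal and kidney transporter EAAC1 that also takes up cysteine, was at 7.07, 6.76, 5.14 and 5.91 in the double knockout and 7.17 and 7.03 in wildtype. Array 3 was the lowest of the 4 double-knockout arrays, and the difference of -0.88 ± 0.45 did not pass (adjusted p = 0.255). Slc1a5, the glutamine exchanger ASCT2, had 5 probes and was detected by none.

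Slc36a1 encodes PAT1, the proton-coupled exporter of small neutral amino acids from lysosomes. Its levels were 5.81, 5.63, 5.95 and 5.92 on double-knockout arrays 1, 2, 3 and 5, and 4.85 and 5.32 on wildtype arrays 2 and 3. The groups did not overlap, and wildtype array 3 lay nearer to the double knockout than wildtype array 2 did. The change was 0.74 ± 0.17, 1.67-fold higher (adjusted p = 0.0328). The call was lost in 7 of 15 alternatives, among them without wildtype array 2 (0.50, adjusted p = 0.305). Slc36a2, the plasma membrane form, gave -0.04, and Slc36a3 was detected on no array.

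Among the monoamine and osmolyte carriers, Slc6a4, the serotonin transporter, was 7.26, 6.58, 6.56 and 6.14 on double-knockout arrays 1, 2, 3 and 5 and 5.62 and 6.06 on wildtype arrays 2 and 3. The groups did not overlap, but array 5 lay close to wildtype array 3, and the change of 0.80 ± 0.28 did not pass (adjusted p = 0.108). It passed in 3 of 15 alternatives, with the mean of its probes (0.78, adjusted p = 0.0386), a replicate block by description numbers (1.08, adjusted p = 0.0392) and without double-knockout array 5 (0.96, adjusted p = 0.0488). A dimmer probe had 5.49, 5.35, 5.49 and 5.41 in the double knockout and 4.46 and 4.87 in wildtype, and it passed over all probes (0.77 ± 0.16, adjusted p = 0.0215). Of 7 tested mast cell markers, 6 rose and 1 did not pass. The largest of them were Tpsb2 (1.77) and Tpsab1 (1.69), mast cell tryptases, and Mcpt4 (1.43), a mast cell chymase, and 3 rose when wildtype array 2 was left out and 4 when wildtype array 3 was. Their summed linear signal was 14478 to 22886 on double-knockout arrays and 6594 to 7084 on wildtype arrays. It was highest on double-knockout array 1 and lowest on array 5 of the 4, as the brighter Slc6a4 probe was, while the dimmer probe was lowest on array 2. Ms4a2, part of the mast cell IgE receptor, was not tested because it was detected on fewer than 2 arrays, and the part of mast cells in the Slc6a4 values was not tested.

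The taurine transporter Slc6a6 stood at 11.67, 11.62, 11.51 and 11.47 on double-knockout arrays 1, 2, 3 and 5 and at 11.36 and 11.39 on wildtype arrays 2 and 3. The groups separated by a narrow margin, and the difference of 0.20 ± 0.14 did not pass (adjusted p = 0.394). Slc6a8, the creatine transporter, gave -0.23 (adjusted p = 0.388) and Slc6a13, a GABA and taurine transporter of liver and kidney, 0.29 (adjusted p = 0.48). Slc6a12, the betaine and GABA transporter, was detected on 4 of 4 double-knockout arrays (4.76 to 5.12) and on 0 of 2 wildtype arrays (4.49 and 4.59). It was at least 1.18-fold higher and did not pass (adjusted p = 0.119), and the bound did not hold with no background correction (0.22), an offset of 50 (0.19) or the authors' values (0.23). With 75th percentile scaling it passed (0.58, adjusted p = 0.0457). Slc6a2 for noradrenaline and Slc6a11 for GABA were detected on no array, and Slc6a3 for dopamine on 1.

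Within the Slc7 family, Slc7a8 came nearest to the threshold after Slc7a11. It encodes LAT2, a light chain for neutral amino acids. Its levels were 9.50, 9.54, 9.25 and 8.99 on double-knockout arrays 1, 2, 3 and 5 and 8.58 and 8.75 on wildtype arrays 2 and 3, without overlap. The difference of 0.65 ± 0.18 (95% interval 0.24 to 1.07) had an adjusted p of 0.0563 and passed in 5 of 15 alternatives. Its second probe gave 0.33 ± 0.18 (adjusted p = 0.298). Slc7a9 is the cystine and dibasic amino acid light chain of kidney. Its brighter tested probe ran from 5.0 to 5.67 in the double knockout against 5.79 and 5.98 in wildtype. The difference of -0.50 did not pass (adjusted p = 0.151). A second tested probe overlapped between genotypes, at 4.59 to 4.95 against 4.81 and 5.19 (-0.23 ± 0.18). Slc7a2, a cationic amino acid transporter that supplies arginine, gave -0.72 ± 0.25 (adjusted p = 0.110), with double-knockout array 1 (7.21) above wildtype array 3 (7.14). Slc7a4, an orphan relative of these carriers, gave 0.31 (adjusted p = 0.303), and Slc7a3, another cationic amino acid transporter, gave -0.23. The light chains Slc7a6 (-0.07), Slc7a7 (0.15), Slc7a10 (-0.29) and Slc7a13 (0.19) did not pass either. Slc7a6os, on the strand opposite Slc7a6, gave -0.14, and whether the probes separate this pair was not checked. Slc3a2, the heavy chain 4F2hc that Slc7a11 and Slc7a8 pair with, has 1 probe here and was detected on no array. A probe without signal may be a poor probe, so this does not show its RNA to be absent. Slc7a1, Slc7a12 and Slc7a15 were also detected on no array, and Slc7a14 on 1.

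No tested member of the Slc38 or Slc43 families passed by limma, and 0 of 9 had an unadjusted p under 0.05. Slc38a2, the glutamine and alanine carrier SNAT2 that is induced when amino acids run short, was 10.24, 10.24, 9.76 and 10.24 on double-knockout arrays 1, 2, 3 and 5 and 10.05 and 9.73 on wildtype arrays 2 and 3. Array 3 stood with the wildtype arrays and the other 3 above them, and the difference of 0.23 did not pass (adjusted p = 0.469). Its probes had both signs (-0.48 to 0.23), as had those of Slc38a10 (-0.49 to 0.31). Slc38a5, a glutamine carrier, was 7.95, 8.27, 8.64 and 7.27 in the double knockout and 7.55 and 7.12 in wildtype. Array 5 lay between the wildtype arrays and array 3 was the highest. The erythroid marker mean given above was highest on array 3 and lowest of the 4 on array 2, where Slc38a5 was second highest. On array 5 this mean lay above both wildtype arrays. The summed linear signal of the erythroid list had another order. It was lowest of the 4 on array 2 (74415) and highest on array 5 (82306), where Slc38a5 was lowest. The difference of 0.70 ± 0.33 did not pass (adjusted p = 0.216), but it passed in 2 of 15 alternatives, without double-knockout array 5 (0.96, adjusted p = 0.039) and with a replicate block by title numbers (1.12, adjusted p = 0.0284). Slc38a9, the lysosomal arginine-sensing member, was higher on every double-knockout array (6.62 to 7.19) than in wildtype (6.40 and 6.50), but its 0.42 ± 0.19 did not pass (adjusted p = 0.194). Slc38a1, a glutamine carrier, was detected on 0 of 4 double-knockout and 2 of 2 wildtype arrays, with levels of 4.45 to 4.60 against 4.76 and 4.83. By its means it was at least 1.03-fold lower, but it did not pass (adjusted p = 0.224). The 95% interval of its difference, -0.58 to 0.02, included no change.

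Slc38a8, a glutamine carrier of the retina and brain, varied most within a genotype. Its levels were 7.01, 5.91, 6.47 and 8.15 in the double knockout, an SD of 0.96, against 7.10 and 6.45 in wildtype. The difference was 0.11, within a 95% interval of -1.05 to 1.27. Slc43a1, the branched-chain amino acid facilitator LAT3, was 7.44, 6.81, 7.63 and 6.08 on double-knockout arrays 1, 2, 3 and 5 and 6.66 and 7.0 on wildtype arrays 2 and 3. Arrays 3 and 1 were its highest and array 5 its lowest. The erythroid marker mean was highest on arrays 3 and 1 and lowest of the double-knockout arrays on array 2. The summed signal of that list was highest on array 5. The Slc43a1 difference of 0.17 ± 0.38 did not pass (adjusted p = 0.818). The part of erythroid cells in Slc38a5 and Slc43a1 was not tested. The SD within the double knockout had a median of 0.24 over the tested members and 0.18 over all tested genes.

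**Figure D3:**
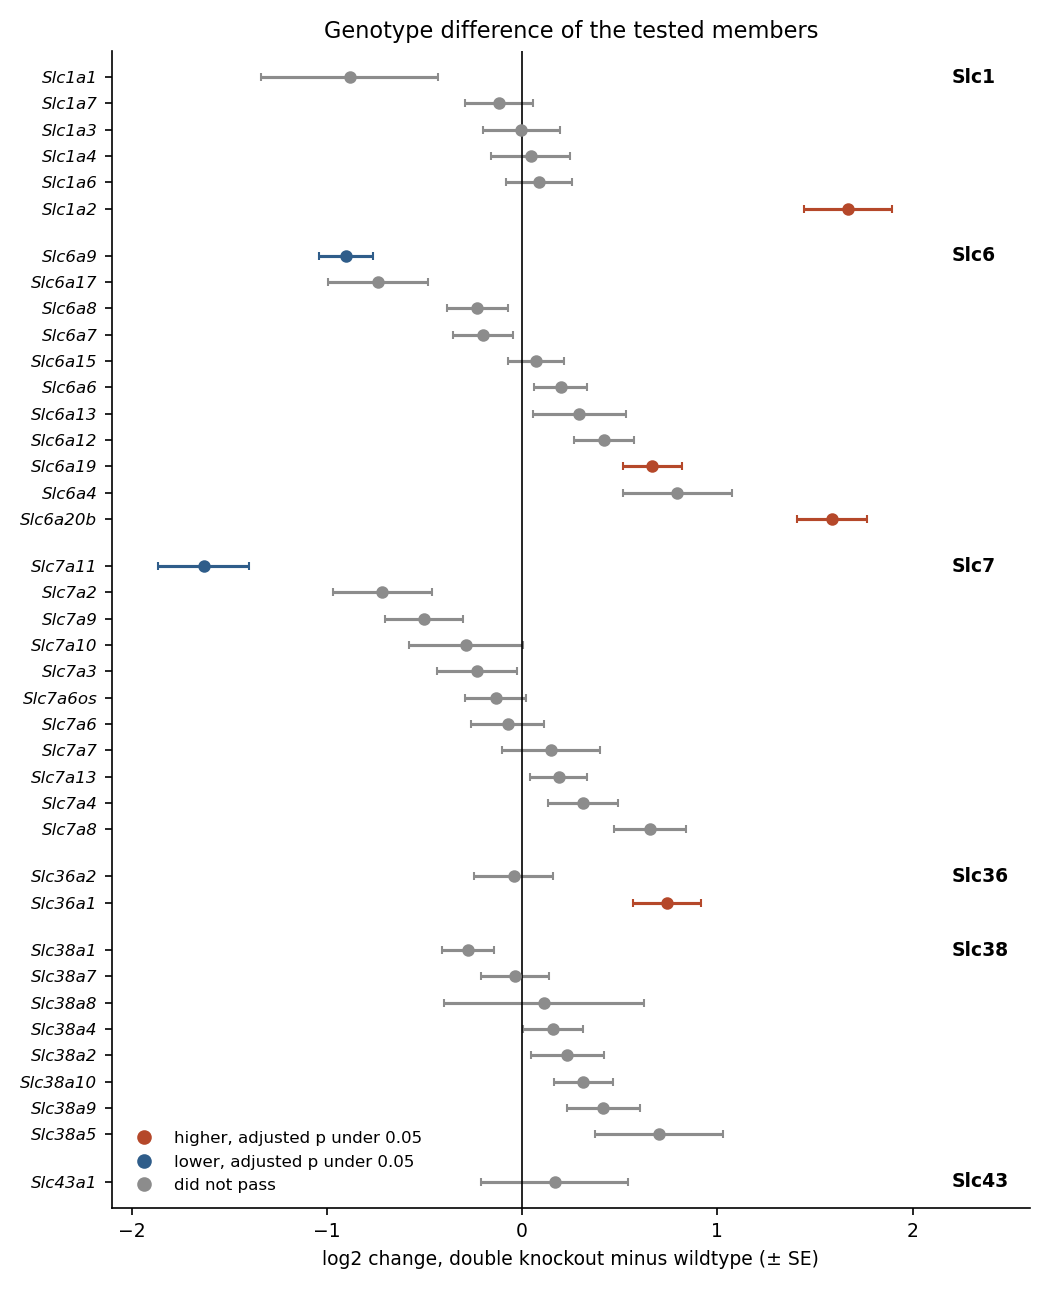
Change in log2 signal of the 39 tested members (double knockout minus wildtype) by family, with bars of 1 SE. Red and blue mark the 4 higher and 2 lower genes with adjusted p under 0.05, with Slc1a2 (1.67) and Slc6a20b (1.59) farthest right and Slc7a11 (-1.63) farthest left.

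Detection was counted over the 58 genes on each array. Double-knockout arrays 1, 2, 3 and 5 detected 36, 36, 36 and 39 of them, and wildtype arrays 2 and 3 detected 32 and 34. The counts of genes did not overlap between genotypes, but those of member probes did. Double-knockout arrays 1, 2, 3 and 5 detected 50, 53, 50 and 52 of the 120 probes. Wildtype arrays 2 and 3 detected 47 and 51. The share of all named genes detected also overlapped. It was 60.6%, 60.2%, 60.4% and 60.3% on double-knockout arrays 1, 2, 3 and 5. On wildtype arrays 2 and 3 it was 60.4% and 61.0%. A total of 29 genes were detected on every array, 15 on none and 14 on some. Slc1a2, Slc6a12 and Slc6a19 were detected on all double-knockout and no wildtype arrays, and Slc38a1 on all wildtype and no double-knockout arrays. The lowest detected signals were 4.72 to 4.76 on the log2 scale, and 52 of the 120 probes were never detected. Genes detected on fewer than 2 arrays by each of their probes were not tested. These were 19 members: those named above and Slc38a3, Slc38a11, Slc43a2, Slc43a3, Slc6a14 and Slc6a21.

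**Figure D4:**
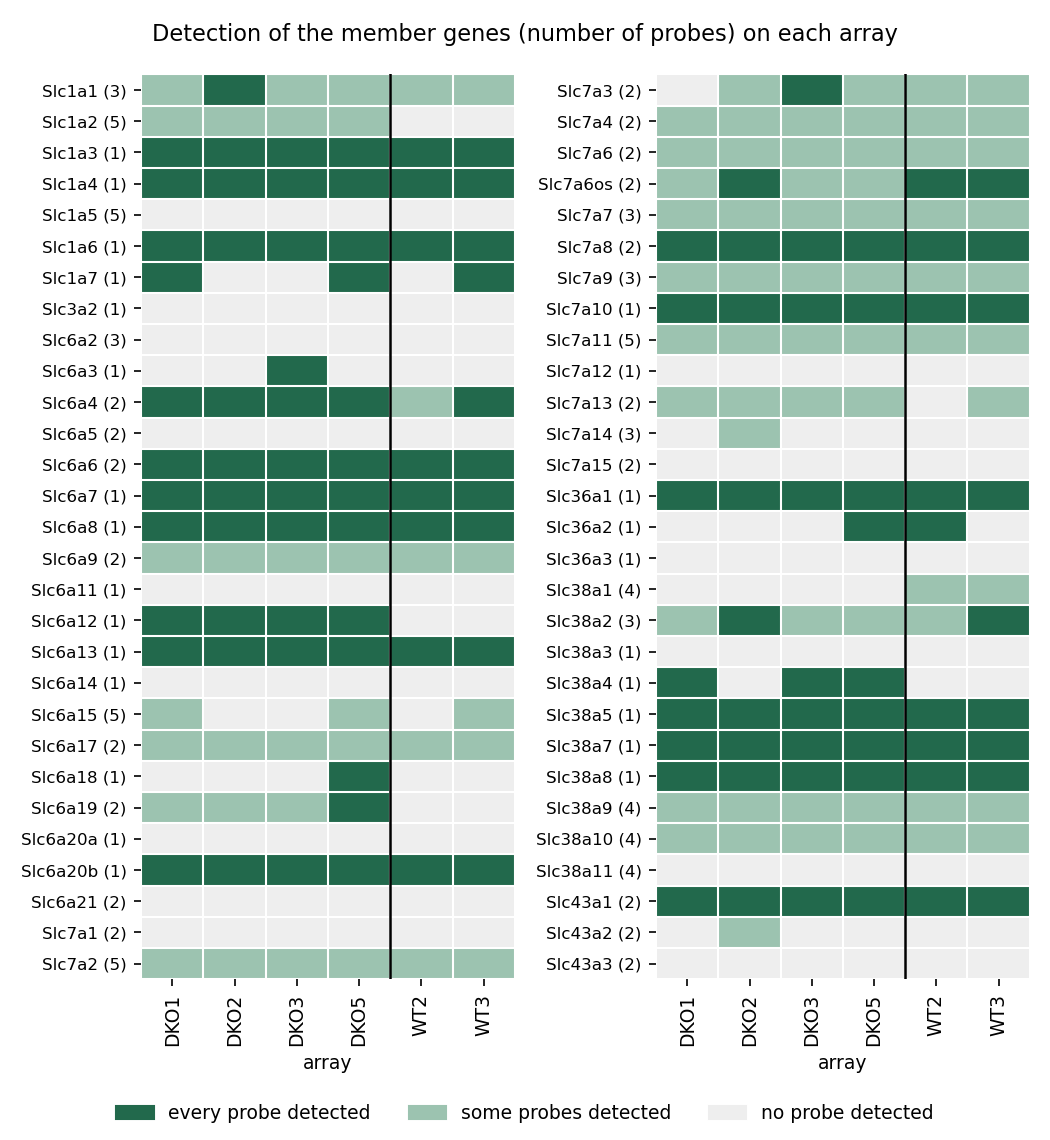
Detection of the 58 member genes (number of probes in brackets) on each array at a detection p under 0.05, with double-knockout arrays to the left of wildtype arrays and darker green where every probe was detected. Slc1a2, Slc6a12 and Slc6a19 show detection on all double-knockout and no wildtype arrays, and Slc38a1 the opposite.

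Among 16 tested amino acid and peptide carriers outside the 7 families, 2 fell, 1 rose and 13 did not pass. Slc17a8, a vesicular glutamate transporter, was detected on 0 of 4 double-knockout and 2 of 2 wildtype arrays, with levels of 4.49 to 4.72 against 5.75 and 5.44, at least 1.80-fold lower (adjusted p = 0.00586). The bound did not hold with no background correction (-0.52) or an offset of 50 (-0.50). Slc25a15, the mitochondrial ornithine carrier, fell (-0.71 ± 0.15, adjusted p = 0.0193), and Ctns, the lysosomal cystine exporter, rose (0.66 ± 0.16, adjusted p = 0.0316). The list's counts were 0 called without wildtype array 2 and 1 lower without wildtype array 3. None of 5 tested partners of the transporters (Anpep, Itgb1, Nedd4l, Sgk1 and Cltrn) passed by limma, and 1 had an unadjusted p under 0.05.

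The response to amino acid shortage runs through the kinase Gcn2 and the transcription factor ATF4, whose targets include Asns and several transporters. Of 17 tested genes of this response, 3 rose, 0 fell and 14 did not pass, with a list median of 0.16. Ddit4, an inhibitor of mTORC1 that stress induces, was 11.25, 10.66, 10.98 and 10.93 on double-knockout arrays 1, 2, 3 and 5 and 9.38 and 9.58 on wildtype arrays 2 and 3. The genotypes lay far apart for it (1.47 ± 0.18, adjusted p = 0.00176), and it passed in all 15 alternatives. Asns, asparagine synthetase, rose by 0.96 ± 0.18 (adjusted p = 0.0146) and Ddit3, the stress factor CHOP, by 0.92 ± 0.16 (adjusted p = 0.00942). With either wildtype array left out, Ddit4 was the 1 member that passed. Other members of the response pointed both ways without passing, as Atf4 (0.25), Trib3 (0.49), Chac1 (-0.35) and Atf3 (-0.61) did. Of 27 tested genes that sense amino acids upstream of mTORC1, 1 rose, Castor1, an arginine sensor (0.73 ± 0.15, adjusted p = 0.0174), and 0 passed without wildtype array 2 or without wildtype array 3.

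Genes that make the amino acids these carriers move were also read. Of 11 tested genes of serine, glycine and proline synthesis, 1 fell, Psat1, a serine synthesis enzyme (-0.92 ± 0.21, adjusted p = 0.028), which lost its call in 6 of 15 alternatives. Phgdh, the first enzyme of that route, gave -0.61 (adjusted p = 0.062) and Gldc, which breaks down glycine, 0.56 (adjusted p = 0.080). Of 6 tested genes of glutathione synthesis and cystine use, Ggt5, a gamma-glutamyltransferase, rose (1.10 ± 0.23, adjusted p = 0.0206) and the glutathione synthesis genes Gclm (-0.06) and Gss (0.15) did not pass. None of 19 aminoacyl tRNA synthetases and none of 10 arginine, ornithine and polyamine enzymes passed by limma, with 3 and 2 at an unadjusted p under 0.05. Of 5 tested connexins of follicles 1 rose, Gja1, the main connexin between granulosa cells (0.91 ± 0.16, adjusted p = 0.0105), and 0 rose when either wildtype array was left out. Gja4, the connexin by which oocytes join granulosa cells, gave -0.18 (adjusted p = 0.64). Of 11 tested pregranulosa markers 2 rose, Hsd17b1, of estradiol synthesis (1.08), and Amhr2, which receives anti-Müllerian hormone (0.63), with a summed signal of 9169 to 10749 in the double knockout and 5622 to 7878 in wildtype, and 0 passed without wildtype array 2.

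**Figure D5:**
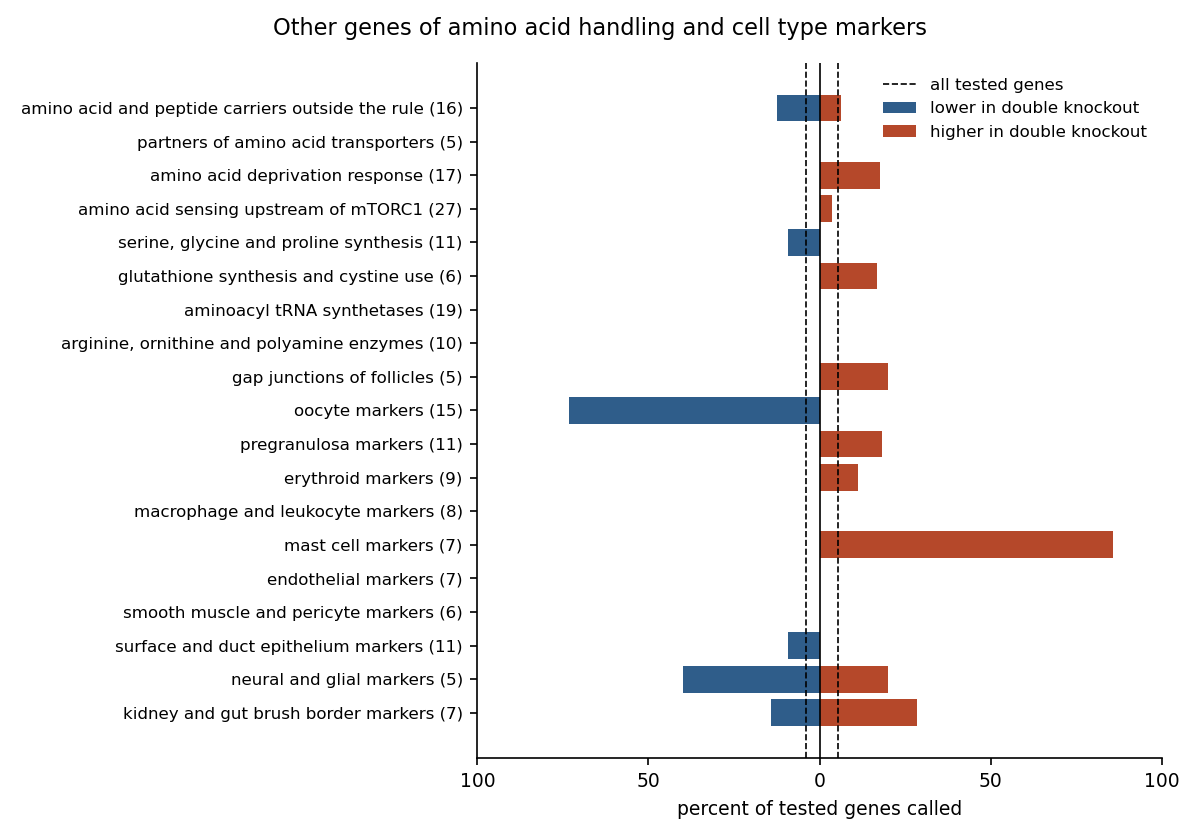
Percent of tested genes in each list that were called lower (left) or higher (right) in the double knockout, with the number tested in brackets. Dashed lines are the shares over all tested genes, 4.06% lower and 5.36% higher, and the oocyte list (11 of 15 lower) and the mast cell list (6 of 7 higher) stand farthest out.

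The other marker lists held few calls. None of 8 macrophage and leukocyte, 7 endothelial and 6 smooth muscle and pericyte markers passed by limma, with 2, 4 and 2 at an unadjusted p under 0.05, and 1 of 11 surface and duct markers fell, Cdh16, a kidney and duct cadherin (-1.06). The macrophage list had its highest summed signal on double-knockout array 3, at 9461, against 4834 to 6055 on the other double-knockout arrays and 3926 to 5102 on wildtype arrays.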

How the data were processed

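The 4 double-knockout and 2 wildtype arrays lay on 1 slide. Per the labels' protocols, an RNeasy kit with DNase gave total RNA, which was amplified with the TotalPrep kit. GenomeStudio is named, without a version, per the submitters' processing notes. Per the file headers and values, the deposited raw table holds signal intensity by probe and array with no background subtraction or normalization. Its detection columns are a deposited score that grows with the signal, so 1 minus the score was taken as the detection p. The authors' second table, with normalized intensity values on a linear scale, served as an alternative.

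R 4.3.3 and limma 3.58.1 were used. The function nec estimated background from detection p-values and added an offset of 16, followed by quantile normalization and log2. Probes with a detection p under 0.05 on 2 or more of the 6 arrays were tested (21981 of 45281). Probes were named from the platform annotation, in which 34885 had 1 symbol, 18 had several and 10378 are unnamed here. The tested probe that was brightest on average stood for its gene. Genotypes were compared with lmFit and eBayes without covariates, with Benjamini-Hochberg adjustment over 12163 genes, or over all tested probes where a probe is named. The smallest two-sided p of an exact permutation test with 4 and 2 arrays is 0.0667, and calls therefore depend on limma's pooling of variance over genes.

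The labels gave no evidence that replicate numbers pair the arrays, so the main fit had no block. Deviations of same-numbered arrays correlated at -0.10 and -0.03 by title and -0.11 and 0.10 by description. With 2 wildtype arrays, their deviations from the mean mirror each other, so these correlations cannot decide whether arrays were paired. Data were also simulated for 12163 genes, with 50 genes changed at each fold and normal noise drawn separately for each gene and array. There the comparison recovered 28% of 1.5-fold, 66% of 2-fold and 98% of 4-fold changes. None were in the wrong direction and 2.68% of calls were false. The data had 1146 called genes and may hold effects shared across an array, which the simulation left out, so these shares may not carry over.

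The genes named are the targeted genes, called members, members with a called probe, the 2 brightest tested members of each family, members detected in all arrays of 1 genotype alone, up to 6 further members with the largest change and no overlap, and up to 3 called genes per list. Other members and genes were named after their values were seen, to account for the families. The members and the 19 lists were chosen with earlier results of these data known. Alternatives were no background correction, 75th percentile scaling, an offset of 50, no filter, the authors' values, a detection p of 0.01, the mean of a gene's probes, replicate blocks and leaving out each array. Gene order and promoter sequences are from RefSeq (GRCm38.p6), in which 58 of 58 members matched by gene identifier and 42 matched a promoter by symbol.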

Additional observations from a re-analysis of the deposited data

Results flagged for a closer look

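Slc38a2 had 1 double-knockout array far from the others. Array 3 stood at a log2 level of 9.76, while the other 3 double-knockout arrays each stood at 10.24. The gap was 0.982 of the group's range, above Dixon's critical value for 4 arrays. Among 22 named members examined it was the only such array, and chance marks about 1 in 20 groups. The second brightest Slc38a2 probe was also lowest on array 3, at 5.86, against 6.18 to 6.64 on the other double-knockout arrays.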

How the results depend on the processing

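Of 709 values of named genes under 15 alternatives, 631 stayed on their side of the threshold, 67 lost a call, 11 gained one and 0 called changes turned round. Slc1a3, Slc1a4, Slc36a2, Slc38a2 and Slc43a1, which did not pass, took both signs. The 6 called members became 1 to 8 with 1 array left out, and 8 member probes became 1 to 8. All called genes (1146) became 189 to 1056, 655 without double-knockout array 1, and called genes of the lists (37) became 14 to 40, with the lowest counts without wildtype array 2 and a lone wildtype array assumed to vary as the others do. With a replicate block by title numbers, which are not known to pair the arrays, 653 genes, 5 members and 4 member probes passed. The member median was then -0.019. By description numbers, 879 genes and 6 members passed. The member median of 0.09 was 0.046 with no background correction, 0.048 with an offset of 50 and with the authors' values, 0.17 with 75th percentile scaling, 0.033 with no filter, 0.043 with the mean of probes and 0.024 to 0.15 with 1 array left out. The cause was not tested. With 75th percentile scaling 464 genes were lower and 756 higher, against 494 and 652. Signals near the lowest detected ones (4.72 to 4.76) limit folds of dim members such as Slc6a19, Slc6a12 and Slc38a1.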
